A study of Mus musculus with 8 samples.

Results

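Cohesin is the ring-shaped protein complex that holds sister chromatids together, and 8 of its genes and regulators were followed here through the polysome fractions of mouse oocytes. The members were the meiotic kleisin Rec8, the mitotic kleisin Rad21, the SMC (structural maintenance of chromosomes) subunits Smc1b, Smc1a and Smc3, the meiotic stromal antigen Stag3, the separase gene Espl1 and the securin gene Pttg1. They were taken by symbol from a table of 25574 genes, in which all 8 were listed, and all 8 were among the 14292 genes tested, whose mean FPKM (fragments per kilobase of exon, scaled to the depth of the library) exceeded 0.1 in one or both datasets.

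The question put to the libraries was how the share of each oocyte transcript compares between polysomal RNA and the RNA around ribosomal subunits and single ribosomes. Fully grown oocytes came from CD1 mice, 8 weeks old and primed with pregnant mare serum gonadotropin. The oocytes were collected at the germinal vesicle stage in IBMX (a phosphodiesterase inhibitor that holds meiotic arrest). After its removal they were cultured, and those that underwent nuclear envelope breakdown (NEBD) during the culture were selected. At 180 min after the removal they were treated with 0.1 mg/mL cycloheximide, which freezes ribosomes on mRNA, for 10 min. Lysates of 200 pooled oocytes per profile were run on sucrose gradients by SSP-profiling (Scarce Sample Polysome profiling), and pooled fractions gave 4 polysomal (P) and 4 non-polysomal (NP) libraries. No genotype or treatment differed between the datasets, and the RNA was depleted of rRNA, reverse transcribed with random and oligo(dT) primers and amplified.

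A cohesin ring is built from a pair of SMC proteins, a kleisin that closes the ring and a stromal antigen that binds the kleisin. In oocytes the rings that hold homologues and sisters together carry REC8, SMC1β and STAG3 and are loaded before birth, so that the protein present in an adult oocyte is largely old. Securin binds and inhibits separase until the anaphase-promoting complex directs its ubiquitination, after which separase cleaves the kleisin, along the arms in meiosis I and at the centromeres in meiosis II. Shugoshin with the phosphatase PP2A protects the centromeric kleisin during the first division. The P pool covers the region of the gradient where transcripts with several ribosomes sediment, and heavy stored particles without translation may sediment there too. The NP pool covers the region of the ribosomal subunits and the single ribosome. The top of the gradient, with the lightest particles, went into neither pool.

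The number of reads to which each FPKM column was scaled, recovered from the steps between values, lay between 1299377 and 7594637 for NP and between 2677946 and 4699328 for P. A single read on a transcript of 1 kb therefore corresponded to an FPKM of 0.132 to 0.770, and 9139 to 13753 genes were above 0 in a library. All 8 oocyte markers examined (Zp1, Zp2, Zp3, Gdf9, Bmp15, Mos, Nlrp5 and Ooep) were abundant, with a summed FPKM of 5086 to 11185 in NP and 7485 to 30412 in P. Of 10 cumulus and granulosa cell markers, 3 (Foxl2, Has2 and Ptx3) were listed at 0 in all libraries, while Cyp19a1 was above 0 in all of them. The summed level of the list was 6.25 to 123 in NP and 0.190 to 62.6 in P, nearly all of it Cyp19a1 and Cyp11a1. Blood genes Hba-a1 and Ptprc were listed at 0 throughout.

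The transcript ends of the members are shown first because translation of stored mRNA in oocytes is controlled largely through the 3′ UTR, where the polyadenylation signal and the cytoplasmic polyadenylation element lie. The lines below give 30 bases from the 3′ UTR of the last exon for the 3 abundant members and for Stag3, the member with the smallest p between the datasets. They were read from GRCm38 with the GENCODE M21 annotation on the strand of the transcript, with the polyadenylation signal in capitals. The Pttg1 bases are chr11:43420274-43420303, minus strand, those of Espl1 chr15:102324324-102324353, plus strand, those of Rad21 chr15:51962240-51962269, minus strand, and those of Stag3 chr5:138312357-138312386, plus strand. The Rad21 stretch belongs to a GENCODE transcript that runs past the end of the gene as the authors' table gives it.
Pttg1: tatgtatgttgtattAATAAAgcatttgtg
Espl1: taatgtgaccttAATAAAgatattccaagc
Rad21: aaggtgagtttctgagcAATAAAagatttg
Stag3: tgccaaactttcAATAAAcatgttcagcta

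The letters AATAAA or ATTAAA occurred in the last 100 bases of the transcript, or in the whole 3′ UTR where this was shorter, for 6 of the 8 members. In the last 100 bases they occurred for 81.3% of 10977 tested genes whose 3′ UTR had at least 100 bases. Smc1b and Smc3 had neither. TTTTAT or TTTTAAT, letters of the cytoplasmic polyadenylation element, occurred in this window in 0 of the 8 members and in 19.4% of the same 10977 genes. Only the transcript strand was searched, and the letters of both motifs can overlap. The 3′ UTR of Pttg1 is 55 bases long and that of Rec8 34, against 1816 for Rad21, so the searched windows differ in length. Pttg1 and Rec8 would fall outside the set of genes behind the percentages. A match is a description of the letters, not of a working site.

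Pttg1 and Espl1, which encode the inhibitor and the protease, were the most abundant members, followed by the kleisin Rad21, while the 5 other members, the meiosis-specific Rec8, Smc1b and Stag3 among them, stayed under a mean FPKM of 10 in both datasets. Pttg1, Espl1 and Rad21 together held between 83.6% of the members' summed FPKM, in NP replicate 3, and 99.9%, in P replicate 4. No member differed between P and NP past the adjusted threshold of 0.1 in limma, at which 3 of all genes tested were called (0.021%), all higher in NP. At an unadjusted p below 0.05 a single member, Stag3, was called, against 9.95% of all genes, 9.47% in the direction of NP and 0.476% in that of P. No member had non-overlapping datasets, which 5.92% of all genes had with NP above P and 0.357% with P above NP. The median log2 fold change of P over NP was −0.30 for the 8 members and −0.39 for all genes, where a mean log2 level lower in P was found for 71.4% of genes and a higher one for 28.6%. The members' median includes Rec8, which passed the filter only through about 3 reads in P replicate 4. The p values here and below treat NP and P libraries as independent, although both fractions were pooled from the same 4 profiles. With the replicate number as a block in the limma fit, 1 gene was called. The lowest adjusted p of a member was then 0.328, for Pttg1. In libraries made from pooled oocytes, fewer oocytes holding a transcript and less transcript per oocyte cannot be told apart.

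FPKM is scaled within each library, so P over NP compares a transcript's share of each pool and not how its molecules divide between the pools. The scale between the datasets is a choice that moves these values. Quantile normalization moved the median log2 fold change of all genes to −0.02, and subtracting each library's median moved it to 0.57. By deposited FPKM Pttg1 and Espl1 had a higher mean log2 level in P and 5 members a lower one. Smc1b and Smc3 turned to higher in P under both scalings, and Smc1a under median centring. Rec8 is counted in neither direction, since it passed the filter only through about 3 reads in P replicate 4.

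**Figure D1:**
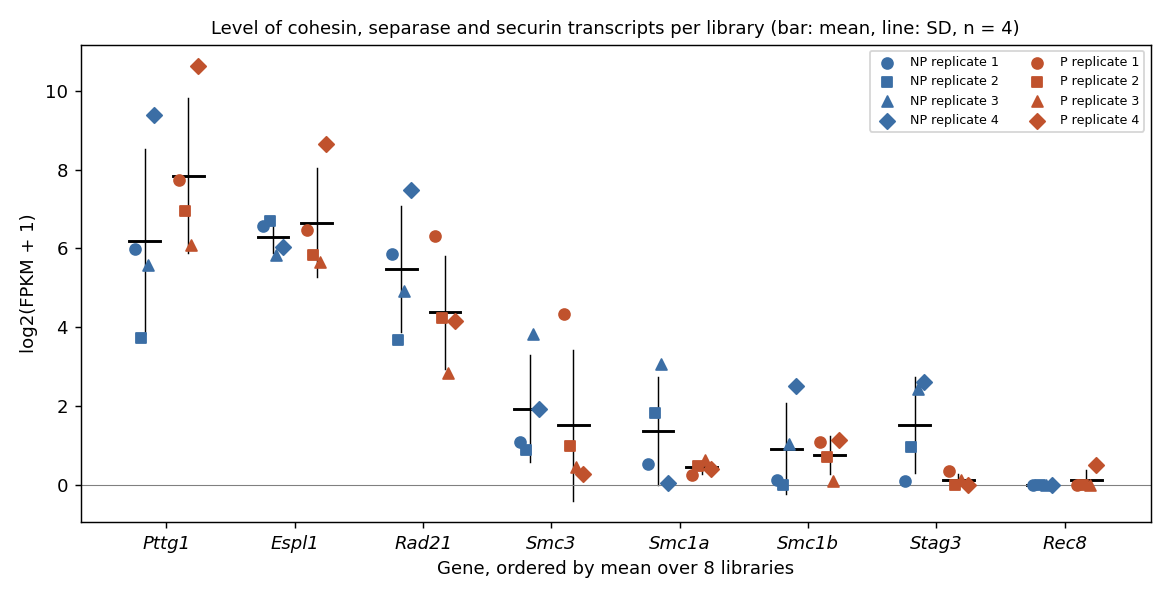
Level of each member in each library, as log2(FPKM + 1) on the vertical axis, with NP libraries in blue and P libraries in orange, a horizontal bar for the mean and a vertical line for the SD (n = 4). Pttg1, Espl1 and Rad21 lie above the other members, Rec8 lies at 0 in 7 of 8 libraries, and NP and P libraries overlap for every member.

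Pttg1 (chromosome 11, 43420250 to 43426251, minus strand, GRCm38) encodes securin. Its FPKM was 62.8, 12.3, 47.1 and 673 in NP replicates 1 to 4 and 212, 123, 67.1 and 1580.5 in P replicates 1 to 4. The replicate 4 library was the highest in both datasets, the datasets overlapped, and the lowest P library was above 3 of the 4 NP libraries. Means stood at 199 ± 317 (SD, n = 4) for NP and 496 ± 726 (SD, n = 4) for P, 2.49 times as high. On the log2(FPKM + 1) scale the fold change was 1.67 (SE 1.12), with a limma p of 0.158, an adjusted p of 0.618 and a 2-sided exact permutation p of 0.343. Without both replicate 4 libraries the ratio of the means was 3.29. Between libraries of the same number, P was 3.37, 10.0, 1.43 and 2.35 times NP for replicates 1 to 4. P was higher in all 4 such pairs for 2.2% of all genes tested. With the replicate number as a block the limma adjusted p was 0.328, although no source ties a number to a profile.

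In the replicate 4 libraries the granulosa cell gene Cyp11a1 was also highest, at 46.4 FPKM in NP and 17.9 in P, against at most 3.25 in the other libraries. Cyp19a1, the most abundant gene of the granulosa cell list, was highest in NP in replicate 4 (75.2) but was at 0.629 in P replicate 4, against 62.6 in P replicate 2. Foxl2, Has2 and Ptx3 were at 0 in both replicate 4 libraries, as in the others. Amh (0.224 in P), Inha (0.179 in NP and 0.759 in P) and Hsd3b1 (1.21 in NP) were above 0 in replicate 4 only. Fshr was above 0 only in NP replicate 2 (0.370), and Ptgs2 only in P replicate 1 (0.873). The part of these cells in the Pttg1 values was not tested. Rank within a library, which no scaling by a common factor alters, placed Pttg1 at percentile 84.6 ± 13.8 (SD, n = 4) of the genes tested in NP and at 95.6 ± 3.58 (SD, n = 4) in P. The difference of 10.9 percentile points had an exact permutation p of 0.143. The lowest Pttg1 percentile was 65.8 in NP and 91.0 in P.

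Espl1 (chromosome 15, 102296293 to 102324356, plus strand) encodes separase, the protease that opens the cohesin ring. Its FPKM was 93.3, 103, 56.5 and 64.7 in NP and 87.3, 55.6, 49.3 and 405 in P. P replicate 4 was far above the rest, and the other 3 P libraries lay within or just below the NP range. The NP mean of 79.4 ± 22.4 (SD, n = 4) compared with a P mean of 149 ± 171 (SD, n = 4), with a log2 fold change of 0.37 (SE 0.69), a limma p of 0.606 and an adjusted p of 0.825. The ratio of P to NP means was 1.88 with all libraries and 0.760 without both replicate 4 libraries, so the direction rested on replicate 4.

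Espl1 was the steadiest of the abundant members in NP. Its SD on the log2 scale was 0.41 there, smaller than for all but 10.3% of the 6415 genes that exceeded a mean FPKM of 10 in NP or P, and its highest NP library was 1.83 times its lowest. The same range was 54.7-fold for Pttg1 and 15.1-fold for Rad21 in NP, and in P it was 8.21-fold for Espl1. Among these genes 97.6% had a smaller SD in NP than Pttg1. By rank Espl1 stood at percentile 90.0 ± 1.91 (SD, n = 4) in the NP dataset and 91.9 ± 4.32 (SD, n = 4) in P.

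Rad21 (chromosome 15, 51962605 to 51991760, minus strand) encodes the kleisin of mitotic cohesin. Its FPKM was 56.8, 11.7, 29.2 and 177 in NP and 78.5, 17.7, 6.18 and 16.7 in P. NP replicate 4 and P replicate 1 were the highest of their datasets, and 3 of 4 P libraries were below 3 of 4 NP libraries. The NP libraries averaged 68.8 ± 74.7 (SD, n = 4) and the P libraries 29.8 ± 32.9 (SD, n = 4), with a log2 fold change of −1.10 (SE 0.90), a limma p of 0.245 and an adjusted p of 0.659. Without both replicate 4 libraries the means stood at a ratio of 1.05.

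Rec8 (chromosome 14, 55618037 to 55625395, plus strand) encodes the kleisin that separase cleaves in meiosis. It was listed at 0 in all 4 NP libraries and in P replicates 1, 2 and 3, and at 0.408 FPKM in P replicate 4. That value corresponds to about 3 reads. A count of 0 allows up to 3 reads, which in the 7 libraries at 0 is an FPKM of 0.135 to 0.787, a bound that covers counting error only. No fold between the datasets is read from these values, since both were at or under this limit, and a Rec8 transcript was not detectable at this depth in NP.

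Rad21 exceeded the limit for Rec8 in each of these 7 libraries, from at least 14.9-fold in NP replicate 2 to at least 1318-fold in NP replicate 4. In P replicate 4 it was 40.9 times the Rec8 value, with a 95% exact Poisson interval from the Rec8 reads of 14.0 to 198.

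**Figure D2:**
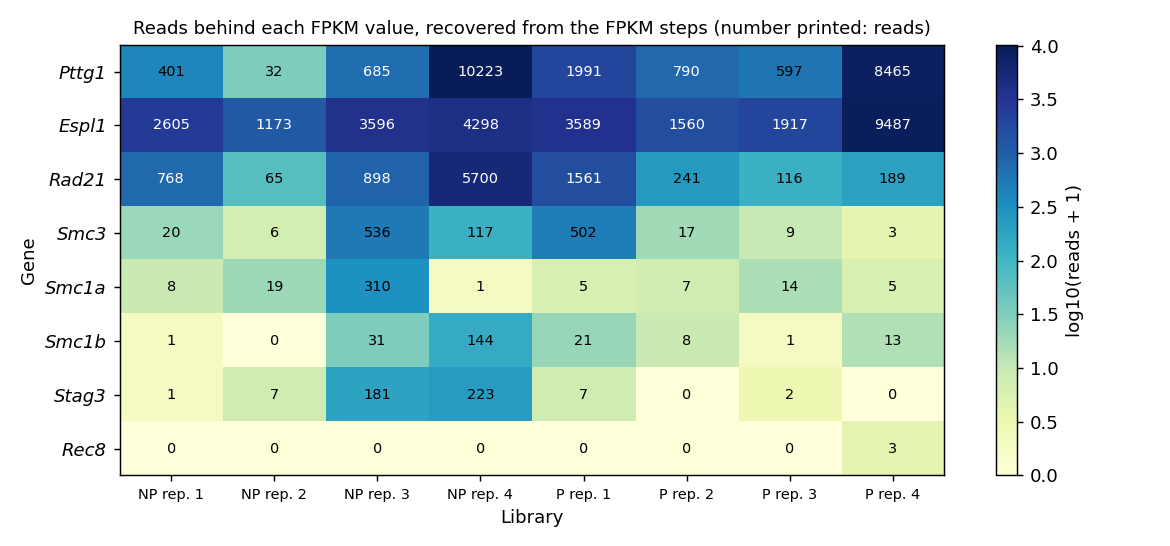
Reads behind each FPKM value, computed from the FPKM, the recovered library total and the merged exon length, for each member (rows) and library (columns), with colour on a log10(reads + 1) scale. Rec8 has 3 reads in 1 library and none elsewhere, and Stag3 has 9 reads over the 4 P libraries against 412 over the 4 NP libraries; the reads of Rec8, Rad21 and Espl1 are approximate.

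Smc3 (chromosome 19, 53600398 to 53645833, plus strand) encodes the SMC subunit common to mitotic and meiotic rings. Its FPKM was 1.13, 0.833, 13.3 and 2.78 in NP and 19.3, 0.957, 0.365 and 0.202 in P. A single library held most of the signal in both datasets, NP replicate 3 and P replicate 1, and the other 3 P libraries lay below the NP median. The means of 4.51 ± 5.92 (SD, n = 4) and 5.20 ± 9.39 (SD, n = 4) were close, while the log2 fold change was −0.42 (SE 1.06), with a limma adjusted p of 0.872.

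Smc1a (chromosome X, 152016428 to 152062694, plus strand) encodes the partner of SMC3 in somatic rings. Its FPKM was 0.434, 2.53, 7.38 and 0.0228 in NP and 0.184, 0.378, 0.546 and 0.324 in P. The P libraries lay close together and NP replicates 2 and 3 were above all of them, but NP replicate 4 was below all of them. The means were 2.59 ± 3.38 (SD, n = 4) in the NP dataset and 0.358 ± 0.149 (SD, n = 4) in P, with a log2 fold change of −0.93 (SE 0.65), a limma p of 0.174 and an adjusted p of 0.636.

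Smc1b (chromosome 15, 85064691 to 85131957, minus strand) encodes the meiosis-specific version of this subunit. Its FPKM was 0.0776, 0, 1.05 and 4.70 in NP and 1.11, 0.618, 0.0557 and 1.20 in P. These values rest on 176 reads in NP, 144 of them in replicate 4, and on 43 reads in P, and the datasets overlapped. The means were 1.46 ± 2.21 (SD, n = 4) and 0.746 ± 0.526 (SD, n = 4), the log2 fold change was −0.17 (SE 0.60) and the limma adjusted p was 0.910. The ratio of P to NP means was 0.512 with all libraries and 1.57 without both replicate 4 libraries, a change of direction.

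Stag3 (chromosome 5, 138280240 to 138312393, plus strand) encodes the stromal antigen found only in meiotic cohesin. Its FPKM was 0.0546, 0.940, 4.34 and 5.12 in NP and 0.260, 0, 0.0785 and 0 in P. The P libraries were all below 3 of the 4 NP libraries, and NP replicate 1, with 1 read, lay among them. The NP libraries averaged 2.61 ± 2.49 (SD, n = 4) and the P libraries 0.0846 ± 0.123 (SD, n = 4). The log2 fold change was −1.41 (SE 0.59), with a limma p of 0.0310, an adjusted p of 0.467 and an exact permutation p of 0.0857.

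The P libraries held 7, 0, 2 and 0 reads of Stag3. At the mean NP level their depth would have given 70.4, 48.0, 66.6 and 40.1 reads, each above the number observed. NP replicates 1 and 2, at 0.0546 and 0.940 FPKM, were also below that mean of 2.61. The 412 NP reads were unevenly spread, with 181 in replicate 3 and 223 in replicate 4. Those libraries were also the deepest of the series, at 7278851 and 7594637 reads. Their FPKM, which is scaled to depth, was the highest as well, at 4.34 and 5.12.

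**Figure D3:**
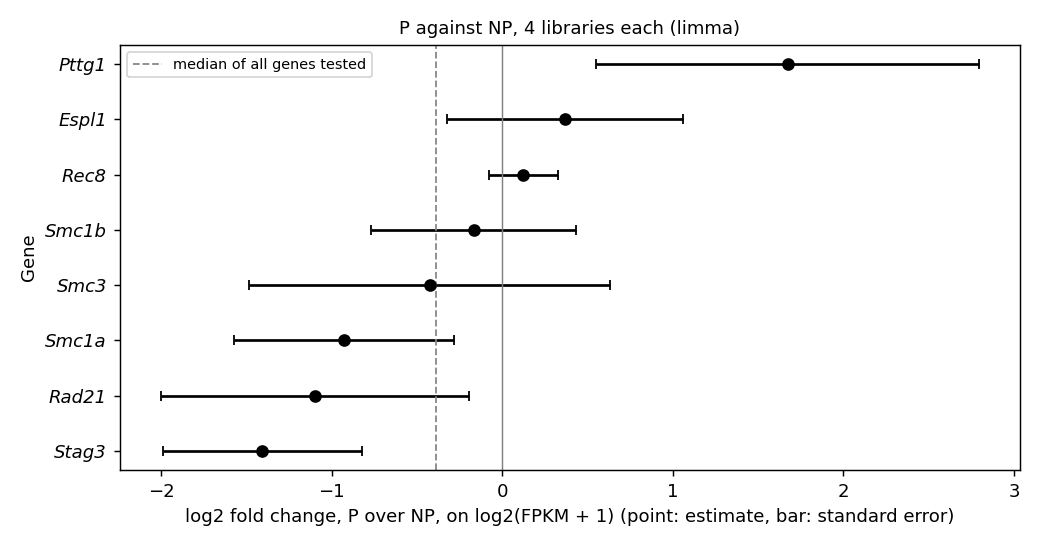
Log2 fold change of P over NP for each member on the log2(FPKM + 1) scale (horizontal axis; point: limma estimate, bar: standard error), with a dashed line at the median of all genes tested. Estimates run from −1.41 for Stag3 to 1.67 for Pttg1, and for none of the 8 members was the adjusted p below 0.1. The Rec8 point rests on about 3 reads in P replicate 4 and gives no direction.

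Within each library 5 ratios between members were compared, with 1 FPKM added to each value. For genes near 1 FPKM this addition weighs on the ratio, so that it also depends on the scaling of the library. Securin and separase form a complex of 1 molecule each. Securin to separase stood at a log2 ratio of −0.11 ± 2.61 (SD, n = 4) in the NP dataset and 1.20 ± 0.62 (SD, n = 4) in P. The Pttg1 level was above that of Espl1 in 4 of 4 P libraries and in 1 of 4 NP libraries, NP replicate 4. The NP count depends on the length used. Merged exons have 2000 bases for Pttg1 and 8749 for Espl1, while their principal transcripts have 948 and 6658. With the latter Pttg1 would stand higher against Espl1, and NP replicates 1 and 3 were at FPKM ratios of 0.673 and 0.833. The difference of 1.31 had an exact permutation p of 0.4 and an adjusted p over the 5 ratios of 0.643.

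Stag3 was compared with the summed level of Stag1 and Stag2, its somatic counterparts. The log2 ratio was −0.33 ± 1.52 (SD, n = 4) in NP, from −1.50 to 1.86, and −2.27 ± 0.39 (SD, n = 4) in P, from −2.66 to −1.80. All NP libraries lay above all P libraries, with a difference of −1.94 and an exact permutation p of 0.0286, the smallest that 4 against 4 libraries can give. Adjusted over the 5 ratios the p was 0.143, so the difference did not pass. With 0.1 FPKM added in place of 1, the difference was −4.08. In NP replicate 1 the ratio rests on 1 Stag3 read, at 0.0546 FPKM over a denominator of 0.485. The denominator was 4.48, 11.0 and 0.688 in NP replicates 2 to 4, and 2.47 to 6.14 in P. Non-overlap in either direction was found for 6.28% of single genes. Stag1 itself was at a mean FPKM of 1.55 in NP and 1.41 in P, and Stag2 at 2.62 and 2.99.

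The Rec8 to Rad21 ratio was below 0 on the log2 scale in 8 of 8 libraries, with a mean of −4.87, which follows almost wholly from the Rad21 level since Rec8 was at 0 in 7 of them. The difference between the datasets was within the spread (1.22, exact permutation p = 0.286, adjusted p = 0.643). Smc1b to Smc1a was above 0 in 3 of 4 P libraries and 1 of 4 NP libraries, with a difference of 0.76 (exact permutation p = 0.514, adjusted p = 0.643), or 1.49 with 0.1 FPKM added. Smc3 relative to both SMC1 genes differed by 0.57 (exact permutation p = 0.743, adjusted p = 0.743).

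**Figure D4:**
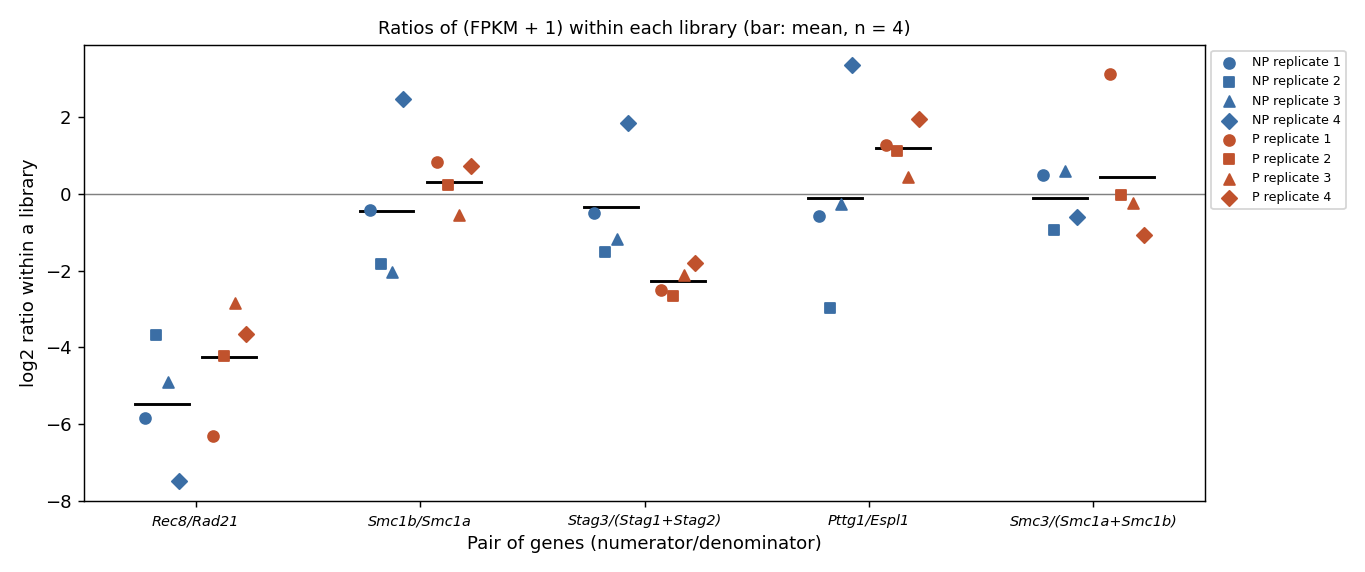
Log2 ratio of (FPKM + 1) between members within each library, for 5 pairs (NP blue, P orange, symbols for replicates 1 to 4, bar: mean, n = 4). Stag3 relative to Stag1 plus Stag2 is the pair whose NP and P libraries do not overlap, and Pttg1 lies above Espl1 in each P library.

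In the order of mean log2 level over the 8 libraries, Pttg1 came first, followed by Espl1, Rad21, Smc3, Smc1a, Smc1b, Stag3 and Rec8. FPKM allows for the length of a gene's exons, but how evenly the cDNA of different genes was amplified was not measured, so the order is a description. The lengths are a limit too. The annotated exons of Pttg1 merge to 2000 bases while its principal transcript has 948, and for Espl1 these are 8749 and 6658. The order was set by the same means that the tests below compare, so each difference is positive by construction, and the p values describe only the spread over libraries. These p values count 8 libraries as independent, although NP and P fractions were pooled from the same 4 profiles. Over 4 units the smallest sign-flip permutation p would be 0.125. The step from Rad21 to Smc3 was the widest, 3.21 on the log2 scale and in this direction in 8 of 8 libraries. Its exact sign-flip permutation p was 0.00781, the smallest that 8 libraries allow, and the adjusted p over the 7 neighbouring pairs was 0.0547. Espl1 was above Rad21 in 7 of 8 libraries (difference 1.54, exact permutation p = 0.0547, adjusted p = 0.191). Pttg1 was above Espl1 in 5 of 8 (difference 0.55, exact permutation p = 0.430, adjusted p = 0.602).

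Smc3, Smc1a, Smc1b and Stag3 could not be ordered beyond their spread. Smc1a and Smc1b differed by 0.07, each being the higher in 4 of 8 libraries (exact permutation p = 0.922), and Smc1b and Stag3 by 0.02 (exact permutation p = 0.953). Stag3 was above Rec8 in 6 of 8 libraries (difference 0.75, exact permutation p = 0.125). Within NP the order opened with Espl1, and within P with Pttg1, and Stag3 was the fifth member in NP and the last in P. The place of Espl1 before Pttg1 in NP depends on the exon lengths used.

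By rank within a library, Rec8 lay at percentile 7.98 ± 2.46 (SD, n = 4) in the NP dataset and 20.9 ± 15.3 (SD, n = 4) in P, with no overlap (exact permutation p = 0.0286). A gene at 0 shares its rank with all other genes at 0, so in the 7 libraries at 0 this value counts how many genes were listed at 0 rather than the level of Rec8. P replicate 4, where Rec8 was above 0, stood at percentile 43.7, and without it the difference of 12.9 was 5.34. Stag3 lay at 37.4 ± 16.5 (SD, n = 4) in the NP dataset and 23.1 ± 8.09 (SD, n = 4) in P (exact permutation p = 0.2), and Rad21 at 81.6 ± 12.9 (SD, n = 4) and 77.2 ± 10.6 (SD, n = 4). Pttg1 is given above, and for the other members the exact permutation p was 0.314 or more.

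The wider pathway was read from 38 partner genes in 6 lists, of which 36 passed the filter. With limma none had an adjusted p below 0.1. At an unadjusted p below 0.05, 4 of the 36 were called, all higher in NP, where 9.47% of all genes were called in that direction. The median log2 fold change of the 36 was −0.14, against −0.39 for all genes.

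Of 5 genes for loading and acetylation, Mau2, which with NIPBL loads cohesin on DNA, stood at 173, 171, 106 and 75.8 FPKM in NP and 34.9, 41.7, 17.9 and 57.7 in P. Each NP library was above each P library, with a log2 fold change of −1.79 (SE 0.59), a limma p of 0.00915 and an adjusted p of 0.407. The acetyltransferase gene Esco1 was at 14.7 ± 19.9 (SD, n = 4) in the NP dataset and 11.1 ± 8.97 (SD, n = 4) in P.

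Among 4 genes of cohesin release and maintenance, Cdca5, which encodes sororin, was by far the most abundant, at 1631 ± 773 (SD, n = 4) in the NP dataset and 1366 ± 747 (SD, n = 4) in P. Its log2 fold change was −0.26 (SE 0.64). The releasing factor Wapl (listed as Wapal) stood at 12.9 ± 7.36 (SD, n = 4) in NP, and its P mean was 1.01 times as high. None of the 4 was called at an unadjusted p below 0.05, and the median log2 fold change was 0.10.

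The 13 genes of centromeric protection had a median log2 fold change of −0.09. Sgo1 (listed as Sgol1), a shugoshin gene, was at 97.3 FPKM in P replicate 1 and between 2.13 and 11.2 in the other libraries. The PP2A scaffold gene Ppp2r1a was at 173 ± 66.5 (SD, n = 4) in the NP dataset and 401 ± 332 (SD, n = 4) in P, with a log2 fold change of 0.82 (SE 0.70), and the catalytic gene Ppp2ca at 36.1 ± 9.77 (SD, n = 4) and 37.0 ± 21.1 (SD, n = 4).

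The regulatory B56 genes of PP2A were picked out of this list after their values were seen. Their log2 fold changes were −1.11 (SE 1.14) for Ppp2r5a, −0.78 (SE 0.78) for Ppp2r5b, −1.32 (SE 1.16) for Ppp2r5c, −1.27 (SE 0.62) for Ppp2r5d and −1.88 (SE 0.74) for Ppp2r5e. Ppp2r5c stood at 26.0, 120, 48.0 and 0.177 FPKM in P replicates 1 to 4, so its value leans on P replicate 4. A negative value was found for 71.4% of all genes, and the mean FPKM of Ppp2r5a was 16.8 in P against 16.3 in NP. Of these Ppp2r5e alone had an unadjusted limma p below 0.05 (0.0233, adjusted 0.440) and non-overlapping datasets, at a mean of 5.11 ± 5.10 (SD, n = 4) in the NP dataset and 0.391 ± 0.530 (SD, n = 4) in P. Ppp2r5e and Hormad2 fall outside the rule for named genes and were chosen after their values were seen. The kinase gene Bub1, which marks the centromere for shugoshin, was at 12.8 ± 10.2 (SD, n = 4) in the NP dataset and 11.0 ± 6.82 (SD, n = 4) in P.

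Of 4 genes that direct securin to the proteasome, Ube2c, an E2 enzyme of the anaphase-promoting complex, stood at 170, 59.5, 82.8 and 187 FPKM in NP and 43.5, 55.7, 13.7 and 34.0 in P. The datasets did not overlap, with a log2 fold change of −1.74 (SE 0.64), a limma p of 0.0171 and an adjusted p of 0.420. Ube2s, the E2 that extends the ubiquitin chain, had means of 262 ± 222 (SD, n = 4) and 411 ± 399 (SD, n = 4). The activators Cdc20, at 39.3 ± 28.7 (SD, n = 4) and 49.3 ± 32.1 (SD, n = 4), and Fzr1, at 19.9 ± 15.1 (SD, n = 4) and 17.3 ± 10.6 (SD, n = 4), overlapped between the datasets.

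Of 9 genes of the meiotic axis and synaptonemal complex, structures of the fetal oocyte, 7 passed the filter and Syce3 was listed at 0 in all libraries. Syce2, a central element gene, was the most abundant, at 576 ± 214 (SD, n = 4) in the NP dataset and 288 ± 112 (SD, n = 4) in P, a ratio of the means of 0.499. Its limma p was 0.0872 and its adjusted p 0.538. Syce1 reached 165 FPKM in P replicate 4 and was listed at 0 in the other 3 P libraries. Hormad2 was at 2.06 ± 1.03 (SD, n = 4) in the NP dataset and 0.117 ± 0.234 (SD, n = 4) in P, without overlap. Its log2 fold change was −1.42, with a limma p of 0.0101 and an adjusted p of 0.416. The other cohesin subunits on the partner lists, Stag1, Stag2 and the third kleisin Rad21l, were all below an FPKM of 10, and none was called.

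**Figure D5:**
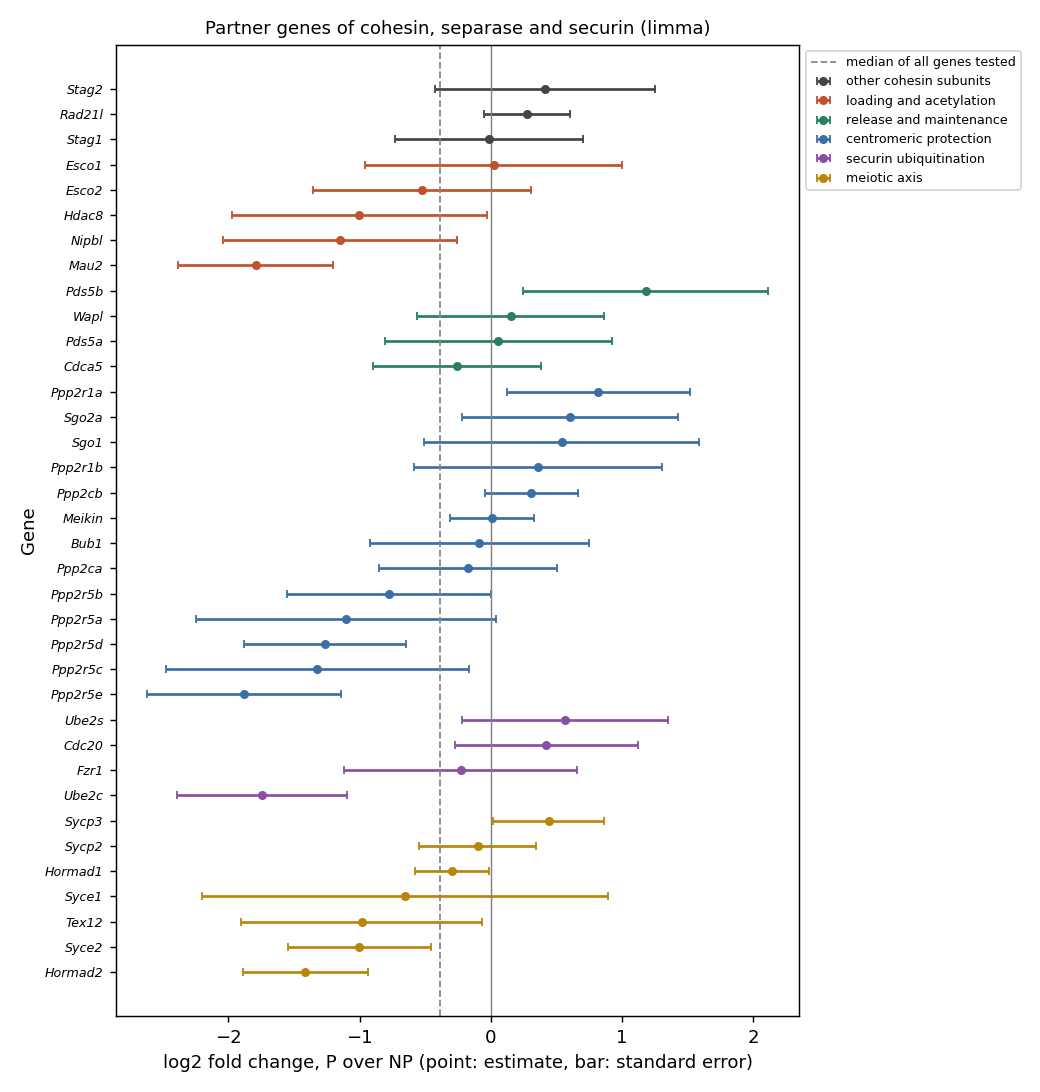
Log2 fold change of P over NP (horizontal axis; point: limma estimate, bar: standard error) for the 36 partner genes tested, coloured by list, with a dashed line at the median of all genes tested. Mau2, Ppp2r5e, Ube2c and Hormad2 are the 4 with an unadjusted p below 0.05, all to the left of 0.

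The genes with the library pattern most like 3 members were found by Pearson's r of log2(FPKM + 1) over 8 libraries, given as a description. Closest to Pttg1 were Chchd2 (r = 0.9584), Tbc1d14 (r = 0.9326) and Usp38 (r = 0.9018), each read in all 8 libraries. Closest to Smc1b were Chmp2b (r = 0.9638), Xrcc2 (r = 0.9509) and Magi1 (r = 0.9465). The 3 genes listed for Rec8, Acbd7, Cyp2b10 and 4921523A10Rik, each had an r of 1.0 because they too were above 0 only in P replicate 4, so the likeness rests on 1 library. The 8 points come from both datasets and from libraries of different depth.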

How the data were processed

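Values were taken from 4 NP and 4 P libraries of NEBD-stage oocytes, grouped by their titles. Per the submitters' processing notes, reads were trimmed with Trim Galore 0.4.1 and mapped with HISAT2 2.0.5 to GRCm38. The deposited FPKM values were computed by the authors in Seqmonk from reads, exon length and a library total, and are neither log-transformed nor normalized further. The authors' other tables hold their means, P/NP ratios and DESeq2 results, and were not used.

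The 4 replicates are biological replicates per the study's methods. Differences were tested 2-sided in limma 3.58.1 (R 4.3.3, eBayes with a trend) on log2(FPKM + 1), which understates changes of low genes, with Benjamini-Hochberg adjustment over the 14292 genes that exceeded a mean FPKM of 0.1 in NP, P or both, and a threshold of 0.1. Single values were compared by exact permutation over 70 assignments or by sign flips, at 0.05. Python 3.11.15, numpy 2.4.6, pandas 2.3.3 and matplotlib 3.10.9 were used. The limma step was checked on simulated data.

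Library totals were recovered from the steps between FPKM values. With the merged exon length of GENCODE M21, 50.8% to 53.6% of values per library gave whole reads within 0.01, so reads are exact for Smc1a, Smc3, Stag3 and Pttg1 and nearly so for Smc1b, and approximate for Rec8, Rad21 and Espl1. A step was counted as 1 read, although it may be a fragment. Reads of amplified cDNA are not independent molecules. No member shares exon bases with another annotated gene.

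The members and lists were chosen with earlier results of these data known. Named were all members, partner genes with a mean FPKM above 10 in a dataset or called, and the 3 genes most like Pttg1, Rec8 and Smc1b. Alternatives were the pseudocount, the filter, 2 scalings, a replicate block and leaving out libraries.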

Additional observations from a re-analysis of the deposited data

Results flagged for a closer look

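Single libraries stood apart from the other 3 of their dataset in 7 of 26 groups of 4 values examined. Each library was picked out by the gap between the highest library and the next, relative to the range of the FPKM values. The rule takes about 1 in 20 groups of normally distributed values. Untransformed FPKM values need not be so distributed, and the share over all genes was not computed. The count of 7 is therefore no measure of an excess. Rec8 in P was at 0.408 in replicate 4 and listed at 0 in the others. Smc3 was at 13.3 in NP replicate 3, against at most 2.78 in the other NP libraries, and at 19.3 in P replicate 1, against at most 0.957. Rad21 was at 78.5 in P replicate 1, with the others up to 17.7. Espl1 was at 405 in P replicate 4, with the others up to 87.3. Pttg1 was at 673 in NP replicate 4, with the others up to 62.8, and at 1580.5 in P replicate 4, with the others up to 212. On the log2(FPKM + 1) scale none of the other 6 values stood apart. For Rec8 the gap equals the range on any scale, since the other libraries were at 0, and it rests on about 3 reads.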

How the results depend on the processing

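Of 290 recomputed values, 240 kept their direction and their side of the threshold. The number of genes called, 3 in the report, was 5 with a pseudocount of 0.1, 0 without a filter, 5 with a filter of FPKM above 1, 0 after quantile normalization, 0 after median centring, 1 with a replicate block, 0 without both replicate 4 libraries (chosen after seeing the data) and 0 to 5 without single libraries. No partner gene was called under any of these. The log2 fold change of Smc1b became 0.21 with a pseudocount of 0.1, 0.51 after quantile normalization, 0.79 after median centring, 0.23 without both replicate 4 libraries and −0.47 to 0.36 without single libraries. That of Smc3 became 0.38 and 0.53 under the 2 scalings and −1.37 to 0.21 without single libraries, that of Smc1a 0.032 under median centring and −1.37 to −0.36 without single libraries, that of Rad21 −0.14 under median centring, −0.43 without NP replicate 4 and −1.74 without P replicate 1, and that of Espl1 −0.39 without both replicate 4 libraries and −0.31 to 0.70 without single libraries. For Pttg1 it stayed between 0.75 and 2.75 (adjusted p 0.223 to 0.804) and for Stag3 between −3.13 and −0.45 (adjusted p 0.384 to 0.750). The Stag3 ratio was −4.08 with a pseudocount of 0.1. Without single libraries it was −2.33 to −1.21, the Smc1b to Smc1a ratio 0.23 to 1.73, the Rec8 to Rad21 ratio 0.55 to 1.91, the Pttg1 to Espl1 ratio 0.35 to 2.46 (2.46, exact permutation p = 0.0286, without NP replicate 4), the Smc3 ratio −0.33 to 1.07, and the percentile differences 5.34 to 16.2 for Rec8, −4.06 to 7.81 for Smc1a, −3.35 to 12.1 for Smc3, −9.85 to 0.308 for Rad21, −0.213 to 3.03 for Espl1 and 4.67 to 15.8 for Pttg1. Without both replicate 4 libraries the Stag3 ratio was −1.37 (exact permutation p = 0.1), and the percentile differences were 5.84 for Rec8, −5.95 for Smc1a, 0.479 for Rad21 and −0.711 for Espl1. Rec8 had no log2 fold change under the filter of FPKM above 1, nor without P replicate 4, alone or with NP replicate 4, since it was above 0 in that library only. The cause of the other changes was not tested. Few reads limit the values of Rec8, Stag3, Smc1a, Smc1b and Smc3, each of which had libraries with at most 3 reads. These were not always shallow libraries, since Smc1a had 1 read in NP replicate 4, the deepest.

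Per the methods, NP and P fractions were pooled from the same 4 profiles. NP and P libraries carry the same replicate numbers, but neither the labels nor the methods tie a number to a profile. For numbers 1 to 4 the NP and P deviations from their group mean had correlations of 0.139, 0.0518, 0.251 and 0.155. Each P library was closest to the NP library of its own number, while NP replicate 2 was closest to P replicate 1 (0.136). With 1 of the 4 below 0.1, the bar used for every pair, the pairing by number was not taken as shown, and the comparisons of the report leave it out. A correlation under that bar does not show the libraries to be unpaired. The p values of those comparisons treat NP and P libraries as independent, which the shared profiles go against. With the replicate block the Stag3 ratio was −1.94 and the Rec8 percentile difference 12.9, each with an exact permutation p of 0.125, the smallest that 4 pairs allow. Pttg1 had a limma adjusted p of 0.328 with the block, and was higher in P in 4 of 4 same-numbered pairs, as were 2.2% of all genes tested. It was 3.37, 10.0, 1.43 and 2.35 times as high in P for numbers 1 to 4.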
